A study of Homo sapiens with 8 samples.

Results

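The G2/M genes are 45 genes that act between the end of DNA replication and the separation of daughter cells: mitotic cyclins and kinases, spindle checkpoint proteins, kinetochore and centromere proteins, kinesins and proteins of anaphase and cytokinesis. They were taken by symbol from a fixed list, and all 45 were found among the 18656 genes of the expression table. All 45 also passed the filter on low values, which 11894 genes passed. RNA was measured in SW480, an established line of human colorectal cancer cells with truncated APC and constantly active beta-catenin, after transfection with small interfering RNA (siRNA). TCF7L2 siRNA was given for 24, 48 and 72 h, and a negative-control siRNA stands at 0 h, with 2 libraries in each of the 4 groups. The study asked how gene expression changes as TCF7L2, a transcription factor through which beta-catenin acts, is silenced. The negative control was sampled only at 0 h, so what the siRNA did and what passing time after transfection did cannot be told apart. The treatment protocol speaks of more replicates than the 2 libraries listed per group, and only the listed libraries were analysed. The labels do not say whether the 2 libraries of a group came from separate cultures. The p-values thus reflect the spread between libraries alone, and that spread may be technical.

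Entry into mitosis is driven by cyclin B bound to CDK1, which CDC25 phosphatases activate, and the Polo and Aurora kinases act beside it. The spindle checkpoint holds the cell before anaphase until every kinetochore is attached, by keeping CDC20 from activating the anaphase-promoting complex (APC/C), the ubiquitin ligase that then destroys securin and cyclin B. Transcripts of this set accumulate in G2 and mitosis under B-MYB, FOXM1 and the MuvB core, and fall when cells leave the cycle. In intestinal epithelium and in colorectal cancer, Wnt signalling through TCF7L2 is known for sustaining proliferation. In bulk RNA, fewer cells in G2 or mitosis and less of a transcript per cell cannot be told apart.

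Levels are given as scaled TPM. TPM, a transcript abundance relative to all transcripts of the library, is corrected for gene length and was divided here by a size factor per library, the median ratio to the mean log profile of all 8 libraries. The listed genes summed to between 352455.7 and 485601.5 TPM, lowest in the second 72 h library, whose size factor was 0.8045 while those of the other libraries lay between 0.9874 and 1.0685. The depth of each library is unknown, since TPM keeps no read counts. A gene is said to be called where limma's moderated test on log2(scaled TPM + 1) over all 8 libraries gave an adjusted p (Benjamini-Hochberg over all 11894 genes, two-sided) under 0.05. Log2 fold changes are on that scale and given ± SE. TCF7L2 had 6.48 and 6.99 scaled TPM at 0 h, 5.81 and 5.11 at 24 h, 4.67 and 3.83 after 48 h and 3.93 and 4.39 after 72 h. Both 72 h libraries lay below both controls, with a log2 change of -0.58 ± 0.11 (limma adjusted p = 0.00197). Of 8 epithelial markers, 6 had at least 5 TPM in every library. The sum of all 8 was 3906 to 4075 scaled TPM at 72 h, against 3017 to 3065 at 0 h. At 72 h 5 of the 8 were called higher and 1 lower, where 25.8% of all genes were called higher and 26.2% lower. On TPM as deposited 1 was higher and 1 lower, where the shares of all genes were 10.5% and 31.2%. Of 13 markers of blood, immune, vessel, stromal and liver cells, 5 were below 1 TPM in every library and 0 were at 0 in both libraries of a group. Their sum was 37.4 to 45.6 scaled TPM at 72 h, against 8.08 to 9.97 at 0 h, and of the 5 that passed the filter 4 (CD68, LYZ, COL3A1 and COL1A1) were called higher at 72 h. Their part in the results was not tested.

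Many G2/M promoters carry a cell cycle genes homology region (CHR, core TTTGAA), where MuvB complexes bind, and CCAAT boxes, where NF-Y binds. RefSeq promoter windows (GRCh38.p14, 250 bases before to 50 after the start site) were matched by symbol for 38 of the 45 genes. A TTTGAA on either strand was present in 28 of the 38 (73.7%), against 15.2% of 34943 windows of all genes. A CCAAT was present in 31 (81.6%), against 34.6% of all windows, and the variant TTCGAA in 3 (7.89%), against 1.45%. In these shares a gene counted where any of its windows matched, while the windows of all genes were counted singly. Genes with more than 1 window had more chances of a match. The promoters below belong to the 4 genes with TTTGAA whose levels varied most over the 4 times by limma's F test, of which MAD2L1, CDC20 and TOP2A fell at 72 h and ANLN rose. Each is shown 5′ to 3′ on the gene's strand, from 220 bases before to 30 after the start, with TTTGAA and CCAAT matches of either strand in capitals (TTCAAA and ATTGG are the reversed forms). MAD2L1 lies at chr4:120066819-120067068 on the minus strand, CDC20 at chr1:43358761-43359010 on the plus strand, ANLN at chr7:36389642-36389891 on the plus strand and TOP2A at chr17:40417867-40418116 on the minus strand.
MAD2L1: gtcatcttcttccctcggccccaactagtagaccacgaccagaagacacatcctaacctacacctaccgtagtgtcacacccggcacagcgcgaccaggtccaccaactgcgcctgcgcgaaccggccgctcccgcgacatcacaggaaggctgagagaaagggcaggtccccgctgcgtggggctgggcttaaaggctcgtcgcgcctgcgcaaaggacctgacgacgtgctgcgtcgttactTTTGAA
CDC20: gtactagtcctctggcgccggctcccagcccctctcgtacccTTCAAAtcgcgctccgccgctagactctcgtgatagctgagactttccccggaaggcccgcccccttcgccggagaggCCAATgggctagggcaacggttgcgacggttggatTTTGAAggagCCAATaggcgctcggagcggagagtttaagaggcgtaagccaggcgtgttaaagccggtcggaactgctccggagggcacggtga
ANLN: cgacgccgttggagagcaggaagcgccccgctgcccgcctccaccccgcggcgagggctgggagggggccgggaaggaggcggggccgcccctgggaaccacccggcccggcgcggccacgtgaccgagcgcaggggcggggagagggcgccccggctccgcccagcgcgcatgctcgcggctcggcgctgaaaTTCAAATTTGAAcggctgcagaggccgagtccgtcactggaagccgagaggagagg
TOP2A: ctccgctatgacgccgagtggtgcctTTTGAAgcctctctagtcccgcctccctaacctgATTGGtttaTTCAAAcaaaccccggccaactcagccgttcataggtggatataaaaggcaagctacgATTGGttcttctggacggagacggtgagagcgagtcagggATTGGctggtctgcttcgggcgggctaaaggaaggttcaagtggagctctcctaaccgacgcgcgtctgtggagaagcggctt

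The only TTTGAA of MAD2L1 begins 25 bases into the transcript, where the part shown ends. In CDC20 the TTTGAA that begins 65 bases before the start stands between a pair of CCAAT boxes. ANLN holds the motif on both strands back to back just before its start, with no CCAAT. TOP2A has TTTGAA 194 and, reversed, 151 bases before its start, with CCAAT boxes, all reversed, on both sides of the nearer one. The motif was present in 13 of the 14 genes called lower at 72 h that had a window, in 3 of the 4 called higher and in 12 of the 20 not called. A match describes the letters only and is no measured binding site.

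Over the time course of scaled values the highest mean of most G2/M genes stood at 24 h and the lowest at 72 h. Of the 45 genes, 33 (73.3%) had their highest group mean at 24 h, which held for 19.2% of all genes tested, and 0 had their lowest mean there (18.6% of all genes). At 72 h 27 (60%) had their lowest mean, against 36.7% of all genes, and 6 (13.3%) had their highest, against 39.2%. With TPM as deposited 20 of the 45 (44.4%) were highest at 24 h, against 8.53% of all genes. There 18 (40%) were highest at 0 h, near the 41.4% of all genes, and 38 (84.4%) were lowest at 72 h, against 54.7%. The peak at 24 h in most of the genes thus depends on the scaling. Averaged over the 45 genes, the log2 level relative to the 0 h mean was 0.10 and 0.13 in the 24 h libraries, -0.10 and -0.08 in the 48 h libraries and -0.14 and -0.17 in the 72 h libraries. On TPM as deposited these means were 0.02 and 0.02 in the 24 h libraries, -0.12 and -0.08 in the 48 h libraries and -0.18 and -0.55 in the 72 h libraries. The genes spread apart late, with a standard deviation between genes of 0.31 and 0.32 in the 72 h libraries and 0.13 and 0.15 in the 24 h libraries. By limma's F test over the 4 times 29 of the 45 (64.4%) were called, near the 56.7% of all genes. The 19 called on TPM as deposited are likewise near background, which was 40.4% of all genes.

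**Figure D1:**
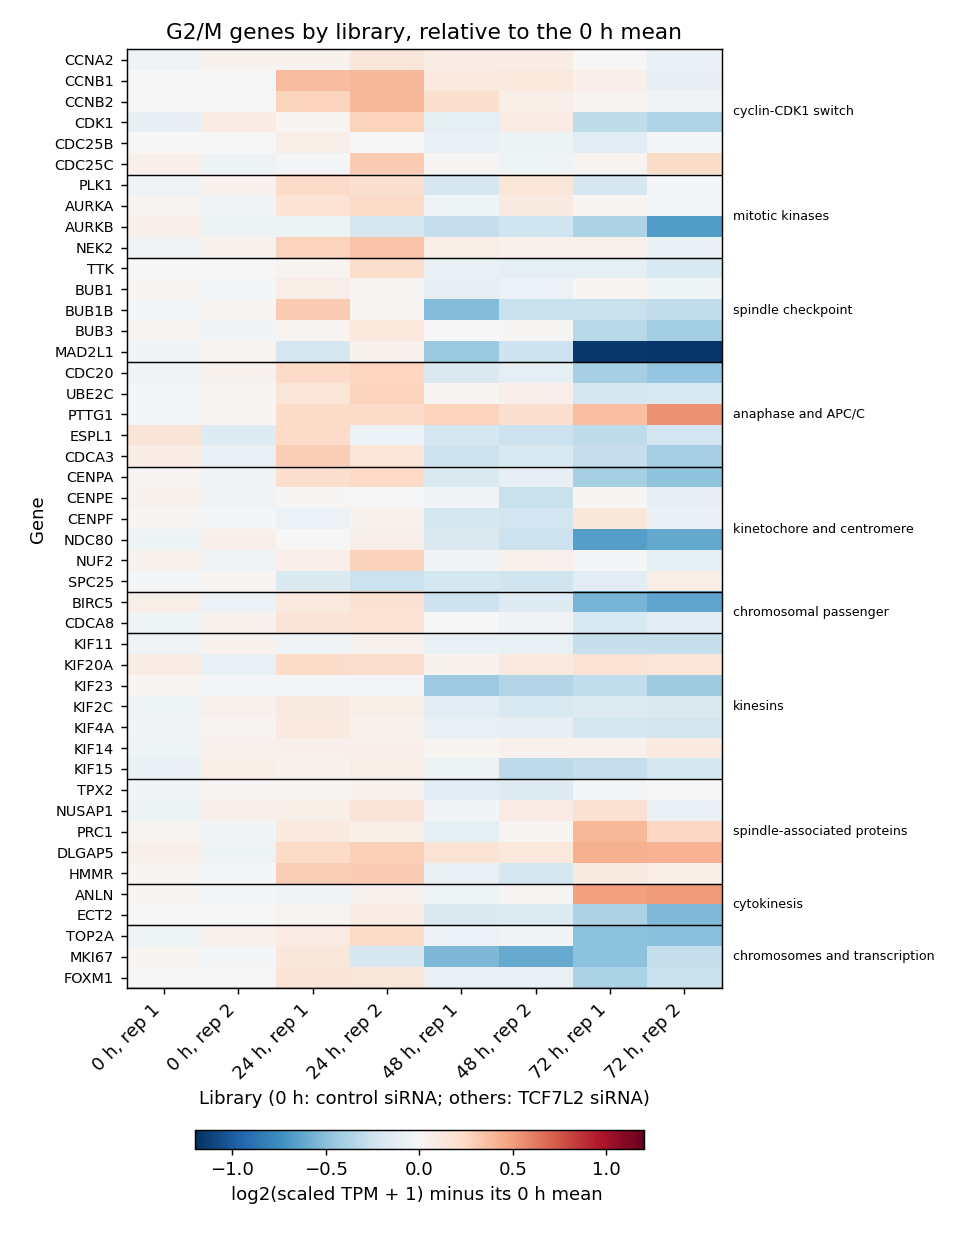
Log2 level of each of the 45 G2/M genes (rows, grouped by role) in each of the 8 libraries (columns, in time order), relative to the mean of the 2 control libraries at 0 h. Values are scaled TPM, on which warm colours (higher) prevail at 24 h, less so as deposited; at 72 h most rows are blue, MAD2L1 deepest, while ANLN, PTTG1, DLGAP5 and PRC1 are red.

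At 24 h against 0 h CCNB1 alone of the 45 was called higher, and 0 were called lower, where 0.647% of all genes were called higher and 0.437% lower. The log2 change was positive in 39 of the 45 genes and in 49.2% of all genes, with medians of 0.11 and 0.00. Both 24 h libraries lay above both 0 h libraries in 26 genes and below them in 2, against 24.9% of all genes each way. The count of called genes depended on single libraries: it was 0 without either library of 0, 24 or 48 h and 4 without either 72 h library, all higher. These tallies depend on the scaling. As deposited 23 of the 45 changes were positive (26.8% of all genes), the groups were apart upward in 14 (10.8%) and downward in 10 (46.7%), and the median was 0.02 against -0.09 over all genes. There 0 of the 45 were called, where 0.210% of all genes were called higher and 0.252% lower.

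At 48 h 15 of the 45 genes (33.3%) were lower than at 24 h and 0 higher, where 6.47% of all genes were called lower and 7.56% higher. The log2 change was negative in 43 of the 45, with a median of -0.18, against -0.01 over all genes. Both 48 h libraries lay below both 24 h libraries in 38 genes (31.1% of all genes) and above them in 0 (28.0% of all genes). The 15 were CCNB1, NEK2, BUB1B, CDC20, CDCA3, CENPA, NDC80, BIRC5, KIF23, KIF2C, HMMR, ECT2, TOP2A, MKI67 and FOXM1. Without the first or second 24 h library 5 or 6 were called, and without the first or second 48 h library 2 or 8. On TPM as deposited 0 were called, where 0.715% of all genes were called lower and 4.30% higher, and the median was -0.10 against 0.07 over all genes. The change was then negative in 38 of the 45, and the groups were apart downward in 24 (18.0% of all genes) and upward in 4 (42.6%). By the size of p CDC20 came first (log2 change -0.39 ± 0.056, limma adjusted p = 0.00272), followed by HMMR (-0.45 ± 0.076), KIF23 (-0.37 ± 0.066) and BUB1B (-0.55 ± 0.11). The KIF23 call was lost without the first 48 h library (limma adjusted p = 0.0543), and that of BUB1B without the first 24 h library (0.0695) or the first 48 h library (0.0657).

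At 48 h against 0 h MKI67, KIF23, MAD2L1, BUB1B and NDC80 were lower and PTTG1 was higher. These 5 of 45 lower (11.1%) and 1 higher (2.22%) stand beside 11.5% and 12.0% of all genes. The median was -0.09, against -0.01 over all genes, and 23 of the 45 had both 48 h libraries below both 0 h libraries (34.5% of all genes), while 6 had them above (31.9%). Without the first or second 0 h library, or the first 48 h library, 2 genes were called. On TPM as deposited 1 was lower and 0 higher, where 3.14% of all genes were lower and 4.61% higher. With the listed genes of every library brought to 1 common sum there were 13 lower and 0 higher, where 17.9% of all genes were called lower and 8.95% higher.

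At 72 h against 0 h 18 of the 45 genes (40%) were lower and 4 (8.89%) higher, where 26.2% of all genes were called lower and 25.8% higher. The median log2 change was -0.15, against 0.00 over all genes. In 24 genes both 72 h libraries lay below both 0 h libraries (37.8% of all genes), and in 6 above them (37.6%). On TPM as deposited, where all genes shifted by a median of -0.19, 21 (46.7%) were lower and 0 higher, where 31.2% of all genes were called lower and 10.5% higher. The 18 and ESPL1, KIF15 and KIF2C fell, and the 4 that rose kept positive values without a call. Leaving out any 1 library gave between 17 and 22 calls, with the 4 rises in every case. Without the second 0 h library 16 of the 22 were called and ESPL1 was added. Without the second 72 h library, the one with the lowest listed sum, 14 were lower and 4 higher.

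**Figure D2:**
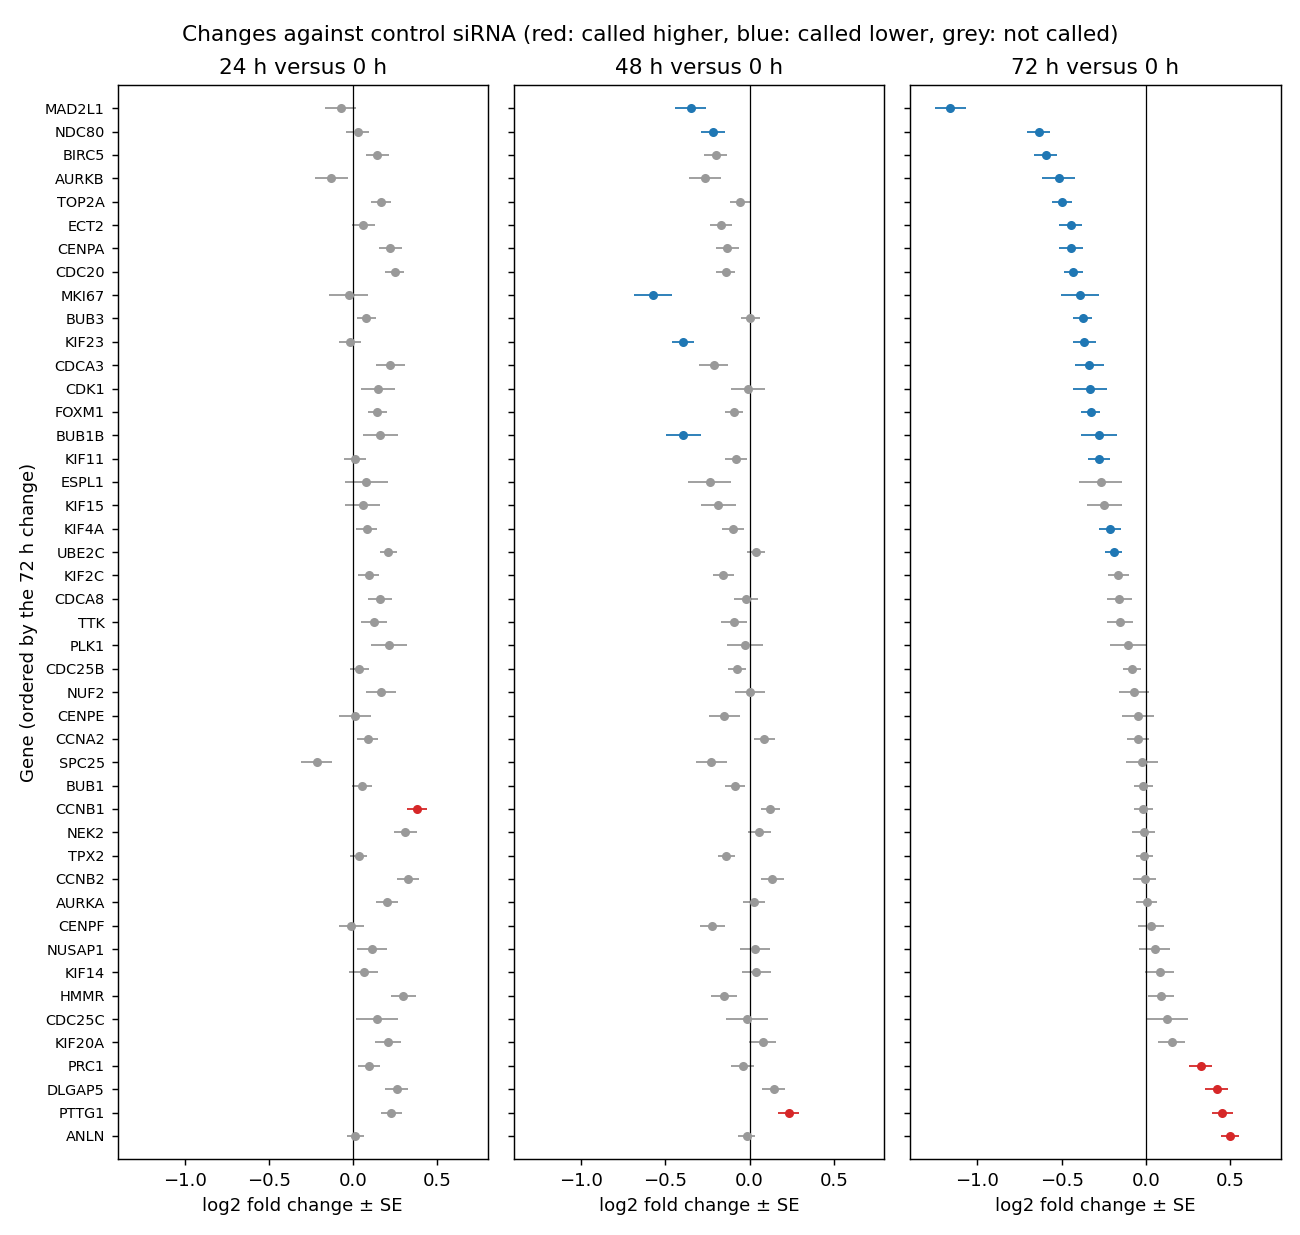
Log2 fold change ± SE (limma, 2 libraries per group) of the 45 genes at 24, 48 and 72 h against the same 0 h libraries, ordered by the 72 h value; red is called higher, blue called lower, grey not called. At 24 h only CCNB1 is coloured; at 72 h the changes run from -1.16 for MAD2L1 to 0.50 for ANLN.

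Of the cyclin and CDK1 genes, cyclin B1 was higher at 24 h and CDK1 lower at 72 h. CCNB1 had 60.5 and 60.8 scaled TPM at 0 h, 78.9 and 79.5 at 24 h, 65.8 and 66.4 after 48 h and 63.4 and 56.7 after 72 h. Both 24 h libraries stood above the other 6, and the log2 change at 24 h was 0.38 ± 0.058 (limma adjusted p = 0.0205). At 72 h it was -0.02 ± 0.058 (limma adjusted p = 0.843). The 24 h call was lost without the first or second library of 0 h (limma adjusted p = 0.152 and 0.156), 24 h (0.128 and 0.137) or 48 h (0.0538 and 0.0536), and on TPM as deposited (0.764). CCNB2, the other main B-type cyclin, had 30.9 and 30.8 scaled TPM at 0 h, 37.2 and 40.6 at 24 h, 35.4 and 32.7 after 48 h and 31.6 and 29.9 after 72 h. Its 24 h libraries were also the highest, but the change of 0.32 ± 0.067 did not pass (limma adjusted p = 0.0567). CDK1, their kinase partner, had 34.3 and 39.5 scaled TPM at 0 h, 37.5 and 44.4 at 24 h, 33.9 and 39.4 after 48 h and 29.6 and 28.5 after 72 h. Both 72 h libraries lay below all others, with a log2 change of -0.33 ± 0.1 (limma adjusted p = 0.0198), not called without the second 0 h library (0.145) or the second 72 h library (0.08). CDC25B, a phosphatase that activates CDK1 at G2, had 72.0 and 72.8 scaled TPM at 0 h, 76.1 and 72.6 at 24 h, 68.2 and 69.3 after 48 h and 65.7 and 71.3 after 72 h. The groups overlapped in part, and the 72 h change was -0.08 ± 0.054 (limma adjusted p = 0.238). Cyclin A2 (CCNA2, 25.2 to 29.5 scaled TPM over the 8 libraries) and the phosphatase gene CDC25C (4.77 to 6.45) were not called in any of the 5 comparisons.

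Of the mitotic kinases, Aurora B fell and the others were not called against 0 h. AURKB, the kinase of the chromosomal passenger complex, had 43.2 and 39.7 scaled TPM at 0 h, 39.6 and 36.0 at 24 h, 33.7 and 34.9 after 48 h and 31.9 and 25.7 after 72 h. The 48 and 72 h libraries lay below all of those of 0 and 24 h, and the log2 change at 72 h was -0.52 ± 0.096 (limma adjusted p = 0.00158), called in all 20 alternatives. AURKA, which acts at spindle poles, had 50.6 and 48.3 scaled TPM at 0 h, 55.6 and 58.2 at 24 h, 47.5 and 53.5 after 48 h and 50.3 and 48.9 after 72 h. The 24 h libraries were highest, with a change of 0.20 ± 0.065 at 24 h (limma adjusted p = 0.166) and 0.00 ± 0.065 at 72 h. PLK1, the Polo-like kinase of mitotic entry and exit, had 25.6 and 27.0 scaled TPM at 0 h, 31.0 and 30.2 at 24 h, 22.8 and 29.3 after 48 h and 22.8 and 26.0 after 72 h. Its 2 libraries at 48 h lay further apart than the group means at 0 and 72 h. NEK2, a kinase of centrosome separation, had 20.4 and 21.5 scaled TPM at 0 h, 25.5 and 26.9 at 24 h, 22.0 and 21.7 after 48 h and 21.8 and 19.8 after 72 h. The 24 h libraries stood above the rest, without a call against 0 h (0.31 ± 0.069, limma adjusted p = 0.0694). NEK2 was called lower at 48 h than at 24 h (-0.25 ± 0.069, limma adjusted p = 0.0406). That call was lost in 11 of 20 alternatives. Without either library of 0 h, 24 h or 48 h the adjusted p lay between 0.0599 and 0.181.

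The spindle checkpoint held the largest change of the set. MAD2L1, whose protein binds and holds back CDC20, had 35.8 and 37.6 scaled TPM at 0 h, 31.8 and 38.0 at 24 h, 26.6 and 30.7 after 48 h and 15.9 and 15.8 after 72 h. Both 72 h libraries were below 16 while none of the others was below 26, a log2 change of -1.16 ± 0.092 (limma adjusted p = 9.52e-06). The step from 48 to 72 h alone was -0.81 ± 0.092 (limma adjusted p = 0.000196), and both calls held in all 20 alternatives. The 48 h change against 0 h was -0.35 ± 0.092 (limma adjusted p = 0.0238), not called when either the first or second 0 h library was left out (0.0741 and 0.122), without the first 48 h library (0.151) or on TPM as deposited (0.176). BUB3, which brings BUB1 and BUBR1 to kinetochores, had 78.2 and 74.9 scaled TPM at 0 h, 78.1 and 83.7 at 24 h, 76.6 and 77.1 after 48 h and 60.6 and 57.0 after 72 h. It stayed near the control level until 48 h and then fell, by 0.37 ± 0.055 on the log2 scale at 72 h against 0 h (limma adjusted p = 0.000403), in all 20 alternatives. BUB1B, which encodes BUBR1, had 24.5 and 25.4 scaled TPM at 0 h, 31.0 and 25.3 at 24 h, 17.1 and 20.6 after 48 h and 20.6 and 20.2 after 72 h. Every 48 and 72 h library lay below every 0 and 24 h library, and the gene was lower at 48 h (-0.39 ± 0.11, limma adjusted p = 0.0251) and at 72 h (-0.28 ± 0.11, limma adjusted p = 0.0491) than at 0 h. Its 48 h call was lost without either 0 h library (0.0841 and 0.116) or the first 48 h library (0.158). Its 72 h call was lost without either 0 h library (0.103 and 0.17) or either 72 h library (0.104 and 0.137). The checkpoint kinase genes BUB1 (31.2 to 35.4 scaled TPM over the 8 libraries) and TTK (13.1 to 17.6) were not called against 0 h, with 72 h changes of -0.02 ± 0.057 and -0.15 ± 0.077.

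Genes of anaphase onset split between falls and a rise. CDC20, the activator of the APC/C that the checkpoint restrains, had 41.5 and 43.8 scaled TPM at 0 h, 50.3 and 51.2 at 24 h, 37.7 and 39.4 after 48 h and 32.1 and 30.7 after 72 h. The 24 h libraries were highest and the 72 h libraries lowest, and no 2 groups overlapped. Its log2 change was 0.25 ± 0.056 at 24 h (limma adjusted p = 0.0723), -0.14 ± 0.056 at 48 h and -0.43 ± 0.056 at 72 h (limma adjusted p = 0.000194), the last called in all 20 alternatives. UBE2C, the APC/C's ubiquitin-conjugating enzyme and the most abundant of the set by its mean scaled TPM, had 101 and 104 scaled TPM at 0 h, 114 and 124 at 24 h, 104 and 107 after 48 h and 89.5 and 90.7 after 72 h. It was lower at 72 h (-0.19 ± 0.051, limma adjusted p = 0.0115). The call was lost without the second 0 h library (log2 change -0.17) and with quantile normalization (-0.12, limma adjusted p = 0.0755). PTTG1, securin, which the APC/C destroys to release separase, had 66.4 and 68.5 scaled TPM at 0 h, 79.0 and 79.0 at 24 h, 81.6 and 77.4 after 48 h and 87.2 and 98.7 after 72 h. All 6 siRNA libraries lay above both controls, and the rise was 0.23 ± 0.063 at 48 h (limma adjusted p = 0.0257) and 0.45 ± 0.063 at 72 h (limma adjusted p = 0.000269). The 72 h call was lost only on TPM as deposited (0.24, limma adjusted p = 0.237). The 48 h call was lost in 8 of 20 alternatives. It was lost without either library of 0 h (log2 change 0.21 and 0.26) or 48 h (0.19 and 0.27). It was also lost on TPM as deposited (limma adjusted p = 0.485), with the same listed sum (0.0943), with no filter (0.0537) and with no trend (0.0687). ESPL1, separase itself, ranged over 6.53 to 9.90 scaled TPM and had a 72 h change of -0.27 ± 0.13 (limma adjusted p = 0.107). CDCA3, a mitotic entry factor (16.9 to 27.9 scaled TPM), fell by 0.34 ± 0.085 on the log2 scale (limma adjusted p = 0.00864), a call lost without the first 0 h (0.0741) or second 72 h library (0.0535).

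At kinetochores and centromeres, NDC80 and CENPA were lower at 72 h and the other 4 genes of the role were not called there. NDC80, whose complex binds spindle microtubules, had 25.5 and 28.0 scaled TPM at 0 h, 26.6 and 27.9 at 24 h, 23.6 and 22.1 after 48 h and 16.6 and 17.1 after 72 h. Both 72 h libraries lay well under all others, a log2 change of -0.64 ± 0.07 (limma adjusted p = 6.56e-05) in all 20 alternatives. The 48 h change of -0.22 ± 0.07 (limma adjusted p = 0.0496) was called in only 4 of 20, and was lost without any 1 of the 8 libraries, with adjusted p-values up to 0.27 without the second 0 h library. NUF2, a subunit of the same complex, had 14.1 and 13.1 scaled TPM at 72 h, against 14.8 and 13.9 at 0 h, a change of -0.07 ± 0.089. SPC25, another subunit, had 7.43 and 8.68 scaled TPM at 72 h, against 8.01 and 8.36 at 0 h, a change of -0.02 ± 0.093. In both genes the 72 h and 0 h libraries overlapped. CENPA, the histone H3 variant that marks centromeres, had 17.4 and 16.5 scaled TPM at 0 h, 19.6 and 20.2 at 24 h, 14.9 and 15.8 after 48 h and 12.6 and 11.8 after 72 h. It was highest at 24 h and lowest at 72 h (-0.44 ± 0.07, limma adjusted p = 0.000602, called in all 20 alternatives). CENPE, a kinetochore kinesin (9.73 to 12.3 scaled TPM over the 8 libraries), and CENPF, a large kinetochore protein (30.6 to 39.9), had 72 h changes of -0.05 ± 0.094 and 0.03 ± 0.076. CENPF was higher at 72 h than at 48 h (0.25 ± 0.076, limma adjusted p = 0.0246). The CENPF call was lost when the first or the second 48 h library or the first 72 h library was left out. It was also lost on TPM as deposited (0.05, limma adjusted p = 0.852).

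Of the chromosomal passenger genes, BIRC5 fell together with AURKB. BIRC5, which encodes survivin, had 38.6 and 35.0 scaled TPM at 0 h, 39.9 and 41.5 at 24 h, 30.8 and 32.9 after 48 h and 24.7 and 23.3 after 72 h. The 72 h libraries were the lowest and the 24 h libraries the highest, and the 72 h change was -0.60 ± 0.068 (limma adjusted p = 8.34e-05) in all 20 alternatives. CDCA8, borealin, the partner that binds survivin, had 12.3 and 13.3 scaled TPM at 0 h, 14.4 and 14.4 at 24 h, 12.8 and 12.4 after 48 h and 11.2 and 11.6 after 72 h. The 72 h libraries were again lowest, but the change did not pass, at -0.16 ± 0.072 (limma adjusted p = 0.0943).

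Of the 7 kinesins, 3 fell at 72 h and 0 rose, where 26.2% of all genes were called lower and 25.8% higher. KIF23, the motor of centralspindlin at the midzone, had 32.9 and 31.8 scaled TPM at 0 h, 31.8 and 31.9 at 24 h, 23.6 and 25.2 after 48 h and 26.1 and 23.7 after 72 h. Its level was lower from 48 h on, by 0.39 ± 0.066 on the log2 scale at 48 h (limma adjusted p = 0.00322) and 0.36 ± 0.066 on the log2 scale at 72 h (limma adjusted p = 0.00136), and the 48 h call was lost only on TPM as deposited. KIF11, Eg5, which pushes spindle poles apart, had 18.4 and 19.7 scaled TPM at 0 h, 18.6 and 19.8 at 24 h, 18.0 and 17.9 after 48 h and 15.5 and 15.5 after 72 h. The 72 h libraries were lowest, and the gene fell by 0.28 ± 0.067 on the log2 scale at 72 h (limma adjusted p = 0.00633), not called without the second 0 h library (0.0541). KIF4A, a chromosome-bound kinesin (15.3 to 19.5 scaled TPM), fell by 0.21 ± 0.065 on the log2 scale (limma adjusted p = 0.0196), not called without the second 0 h (0.117) or second 72 h library (0.0638). KIF4A is uncertain, since its intronless copy KIF4B, listed at 0.06 to 0.14 TPM, could share its reads. The same holds for PTTG1 and its copy PTTG2, listed at 0 to 0.1 TPM. KIF2C (21.3 to 26.5 scaled TPM), KIF14 (6.15 to 7.04), KIF15 (6.94 to 9.44) and KIF20A (12.2 to 15.4) were not called at 72 h, with changes between -0.25 for KIF15 and 0.15 for KIF20A. On TPM as deposited KIF2C and KIF15 were lower too, so that 5 of the 7 fell, where 31.2% of all genes were called lower.

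Genes of spindle-associated proteins held 2 of the 4 rises. DLGAP5, HURP, which stabilises kinetochore fibres, had 16.1 and 14.7 scaled TPM at 0 h, 18.2 and 19.0 at 24 h, 17.3 and 16.9 after 48 h and 21.0 and 20.9 after 72 h. All 6 siRNA libraries lay above the controls, and the rise was 0.42 ± 0.068 at 72 h (limma adjusted p = 0.000696). PRC1, which bundles midzone microtubules, had 88.5 and 84.3 scaled TPM at 0 h, 93.5 and 90.8 at 24 h, 79.9 and 88.1 after 48 h and 114 and 103 after 72 h. Both 72 h libraries stood above all others (0.33 ± 0.067, limma adjusted p = 0.00279). On TPM as deposited these changes were 0.21 and 0.11 and were not called (limma adjusted p = 0.288 and 0.622). There the second 72 h library had 16.8 TPM of DLGAP5, between the controls, and 82.6 of PRC1, the lowest of all 8 libraries. The separation of the libraries in both genes thus depends on the scaling. HMMR, a spindle pole protein, had 10.8 and 10.4 scaled TPM at 0 h, 13.3 and 13.3 at 24 h, 9.91 and 9.01 after 48 h and 11.5 and 11.3 after 72 h. It was lower at 48 h than at 24 h and higher at 72 h than at 48 h (0.24 ± 0.076, limma adjusted p = 0.0292). The rise was not called without the second 48 h or either 72 h library, or on TPM as deposited (0.05, limma adjusted p = 0.84). TPX2, which activates Aurora A (49.0 to 56.1 scaled TPM over the 8 libraries), and NUSAP1, a microtubule-binding protein (37.6 to 45.2), were not called against 0 h, with 72 h changes of -0.01 ± 0.05 and 0.05 ± 0.09.

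The cytokinesis genes ANLN and ECT2 moved in opposite directions. ANLN, anillin, the scaffold of the contractile ring, had 63.5 and 61.2 scaled TPM at 0 h, 61.1 and 64.7 at 24 h, 60.1 and 63.1 after 48 h and 88.0 and 89.1 after 72 h. It was level in 6 libraries and higher in both 72 h libraries, a log2 change of 0.50 ± 0.052 (limma adjusted p = 4.98e-05) and of 0.52 ± 0.052 from 48 to 72 h (limma adjusted p = 0.000115). As deposited the 72 h change was 0.28 (limma adjusted p = 0.149), and the call held in the other 19 alternatives. ECT2, the exchange factor that activates RhoA for furrowing, had 30.0 and 29.9 scaled TPM at 0 h, 30.7 and 31.9 at 24 h, 26.4 and 26.5 after 48 h and 23.0 and 20.5 after 72 h. It was lowest at 72 h (-0.45 ± 0.066, limma adjusted p = 0.000417, called in all 20 alternatives).

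TOP2A, MKI67 and FOXM1 were all lower at 72 h. TOP2A, the topoisomerase that disentangles chromosomes, had 68.0 and 72.7 scaled TPM at 0 h, 75.3 and 82.8 at 24 h, 66.8 and 68.1 after 48 h and 49.6 and 49.5 after 72 h. It was highest at 24 h and fell by 0.50 ± 0.059 on the log2 scale at 72 h (limma adjusted p = 0.000108). MKI67, which encodes the proliferation marker Ki-67, had 12.9 and 12.4 scaled TPM at 0 h, 13.9 and 11.0 at 24 h, 8.38 and 7.96 after 48 h and 8.71 and 10.2 after 72 h. It was lowest at 48 h (-0.57 ± 0.11 against 0 h, limma adjusted p = 0.00692, called in all 20 alternatives) and stood at -0.39 ± 0.11 at 72 h (limma adjusted p = 0.0166). Its 72 h call was lost without either 0 h library (0.0751 and 0.0512) or the first 72 h library (0.102). FOXM1, a transcription factor of G2/M genes, had 42.6 and 42.9 scaled TPM at 0 h, 47.7 and 47.0 at 24 h, 40.1 and 40.1 after 48 h and 32.5 and 35.3 after 72 h. Both 72 h libraries lay below the rest, a change of -0.33 ± 0.056 (limma adjusted p = 0.000954), and like TOP2A was called there in all 20 alternatives. FOXM1 shares 781 exon bases with ITFG2 on the opposite strand in GENCODE release 29, at a mean of 24.7 TPM, and the sources used here do not say whether the authors' estimates used strand. In all 11 of the 45 genes share exon bases with another gene of the table, so that their values are uncertain to that extent: besides FOXM1, these are CCNA2, CDC25C, PLK1, BUB1B, CDCA3, CENPA, NUF2, KIF20A, KIF4A and ANLN (78 bases, with KIAA0895). With annotated genes outside the table included, 17 of the 45 share exon bases. PRC1 shares 3181 bases with AC068831.7 and NUSAP1 1787 with AC087721.2, each on the same strand. Whether the authors' annotation held those genes is unknown, so these values are uncertain too.

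**Figure D3:**
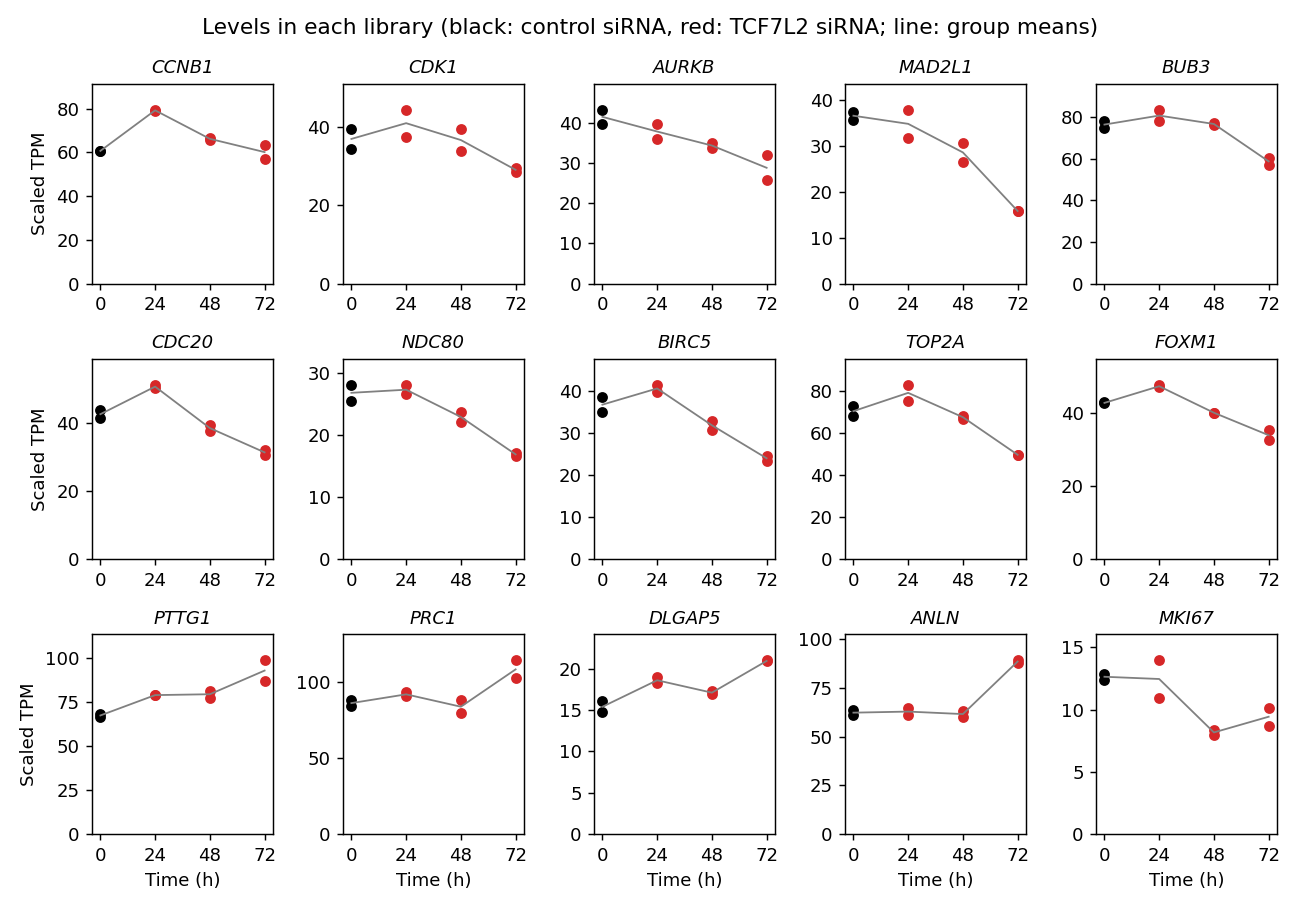
Scaled TPM of 15 of the genes in each library against time in hours (black: control siRNA at 0 h, red: TCF7L2 siRNA, grey line: group means; axes start at 0). CCNB1 peaks at 24 h near 79, MAD2L1 drops to 15.8 and 15.9 at 72 h, and ANLN is level until 48 h and near 88 at 72 h.

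From 48 to 72 h 12 of the 45 genes fell (26.7%) and 6 rose (13.3%), where 19.4% of all genes were called lower and 20.5% higher. By the size of p the falls were led by MAD2L1, TOP2A (-0.44 ± 0.059, limma adjusted p = 0.000504), BUB3 (-0.38 ± 0.055, limma adjusted p = 0.000752) and NDC80 (-0.42 ± 0.07, limma adjusted p = 0.00152), each called in all 20 alternatives. The rises were led by ANLN, PRC1 (0.37 ± 0.067, limma adjusted p = 0.00247), DLGAP5 (0.28 ± 0.068, limma adjusted p = 0.0105) and PTTG1 (0.22 ± 0.063, limma adjusted p = 0.0202). Without the second 48 h library 7 fell and 2 rose, and the calls of DLGAP5 (0.0588) and PTTG1 (0.12) were lost. That of PTTG1 was also lost without the second 72 h library (0.126). With TPM as deposited 13 (28.9%) fell and 0 rose, where 22.0% of all genes were called lower and 4.96% higher and their median shifted by -0.17. The changes of the 6 genes that rose on scaled values then lay between 0.01 for PTTG1 and 0.31 for ANLN.

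Of 65 other mitotic genes tested, none of them among the 45, 36 (55.4%) were lower and 1 higher at 72 h against 0 h, with a median of -0.24. Beside this and the lists below, 26.2% of all genes were called lower and 25.8% higher at 72 h. On TPM as deposited these shares of all genes were 31.2% and 10.5%. There 42 of the 65 (64.6%) were lower and 1 higher, with a median of -0.45. At 24 h 0 of the 65 were called either way, with a median of 0.02, or -0.07 on TPM as deposited. CKS1B, a CDK subunit, had 93.2 and 98.7 scaled TPM at 0 h, 107 and 111 at 24 h, 87.2 and 86.5 after 48 h and 52.2 and 52.0 after 72 h. The 72 h libraries were well below the rest, a change of -0.87 ± 0.048 (limma adjusted p = 9.91e-07). SAPCD2 changed by -0.96 ± 0.058, DEPDC1B by -0.75 ± 0.073 and CENPM, a centromere protein gene, by -0.93 ± 0.093. Of 16 genes of the APC/C, its coactivator FZR1 and its inhibitor FBXO5, 8 were lower and 4 higher at 72 h (8 and 0 on TPM as deposited), with ANAPC16 at -0.85 ± 0.07 and ANAPC1 at -0.73 ± 0.069. Of 13 genes of B-MYB, the MuvB core, its partners in the repressive DREAM complex and NF-Y, 6 were lower and 1, NFYC, higher (8 and 0 on TPM as deposited). MYBL2, which encodes B-MYB, had 46.4 and 44.9 scaled TPM at 0 h, 43.2 and 40.3 at 24 h, 38.2 and 37.1 after 48 h and 31.4 and 30.2 after 72 h. Each later group lay lower, with a 72 h change of -0.55 ± 0.058 (limma adjusted p = 4.71e-05).

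Of 10 genes that restrain entry into mitosis or the cycle, 4 rose and 2 fell at 72 h (1 and 3 on TPM as deposited). Of all genes 25.8% were called higher and 26.2% lower at 72 h (10.5% and 31.2% on TPM as deposited). At 24 h, where 0.437% of all genes were called lower, 1 of the 10 was called. This was CDKN1A, the p21 inhibitor of cyclin-dependent kinases, named after its values were seen. It had 13.3 and 14.0 scaled TPM at 0 h, 7.97 and 7.87 at 24 h, 13.9 and 14.1 after 48 h and 14.9 and 14.5 after 72 h. Only the 24 h libraries were low, with a change of -0.72 ± 0.07 (limma adjusted p = 0.00453). BTG2, an antiproliferative gene, rose by 1.13 ± 0.088 (limma adjusted p = 8.84e-06), and the G2 arrest genes GADD45A by 0.54 ± 0.044 and SFN (14-3-3 sigma) by 0.40 ± 0.053. PKMYT1, an inhibitory kinase of CDK1, fell by 1.04 ± 0.17 on the log2 scale (limma adjusted p = 0.000844).

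Of 52 S-phase genes 44 had a negative log2 change at 24 h and 4 (7.69%) were called lower, with a median of -0.17. Of all 11894 genes 6037 had a negative change at 24 h and 0.437% were called lower, with a median of -0.003. Among the 45 G2/M genes 39 changes were positive, against 49.2% of all genes. As deposited all 52 S-phase changes were negative, with 1 (1.92%) called lower, and 23 of the 45 G2/M changes were positive. There 8705 of all 11894 genes had a negative change and 26.8% a positive one, and 0.252% were called lower. At 48 h 25 of the 52 (48.1%) were lower and 0 higher, and at 72 h 38 (73.1%) were lower and 0 higher, with a median of -0.38, against 11.5% and 26.2% of all genes called lower at these times. As deposited 6 (11.5%) were lower at 48 h, where 3.14% of all genes were, and 42 (80.8%) at 72 h, where 31.2% were. The lists were compared by their counts and medians, with no test between them. TK1, thymidine kinase, had 32.0 and 32.8 scaled TPM at 0 h, 27.7 and 27.6 at 24 h, 24.6 and 25.1 after 48 h and 15.3 and 15.9 after 72 h. No 2 groups overlapped, and the 72 h change was -1.01 ± 0.058 (limma adjusted p = 1.17e-06).

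**Figure D4:**
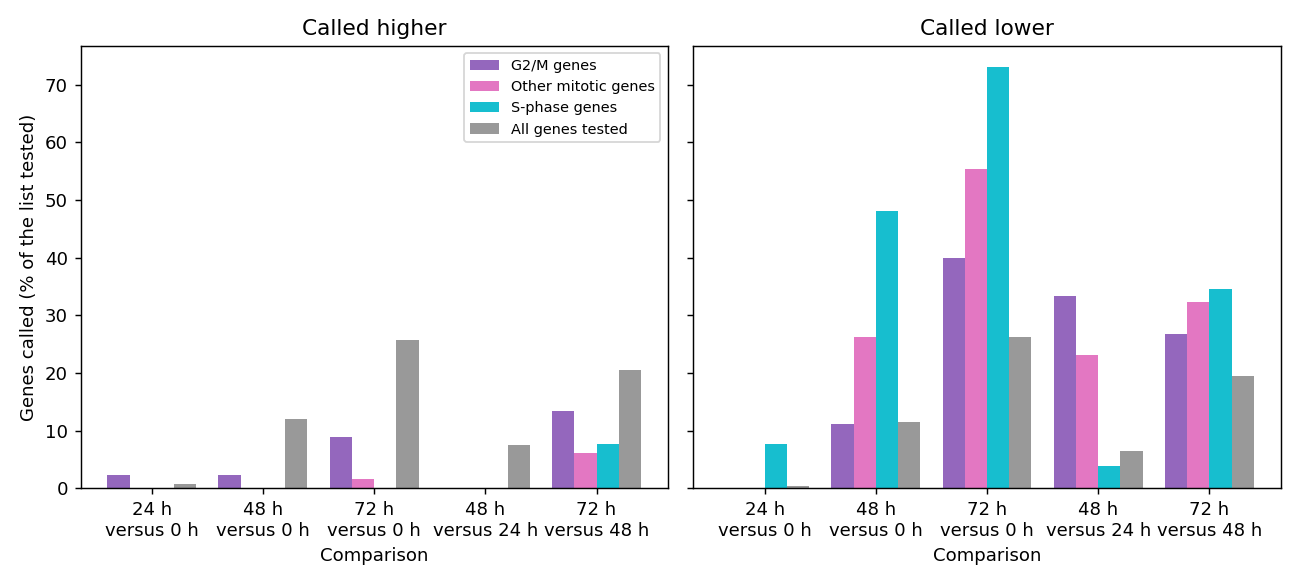
Share of each list called higher (left) and lower (right), in percent of its tested genes, for the 45 G2/M genes, 65 other mitotic genes, 52 S-phase genes and all 11894 genes, in each of the 5 comparisons on scaled TPM. The G2/M bar is at 33.3% lower for 48 h against 24 h, where all genes are at 6.47%, and at 40% lower for 72 h against 0 h, where S-phase genes are at 73.1%.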

How the data were processed

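The authors deposited 1 table of TPM for 18656 gene symbols and 8 libraries, made with RSEM and, per the submitters' processing notes, with FastQC, Trimmomatic, STAR, Picard and SAMtools on build hg19. The sources used here give no version, annotation or strand setting. Total RNA was depleted of ribosomal RNA, per the labels' protocols. TPM keeps no depth, so no counting error could be attached.

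Libraries were divided by median-ratio size factors computed on the genes kept (a deposited TPM of at least 1 in 2 or more libraries), and log2(TPM + 1) was fitted with limma 3.58.1 in R 4.3.3 (group means of all 8 libraries, mean-variance trend, 4 residual and 5.407 prior degrees of freedom), after it was tested on simulated data. The simulated libraries had no differences in scale, so the simulation did not test the scaling. Scaling was chosen because unscaled values gave an infinite prior, so that a gene's own spread was not used. The median SE was 0.0689 for the 45 genes and 0.0912 for all genes. The G2/M genes and the other lists were chosen with earlier results of these data known. Values in every library were given for the 8 called genes of smallest p in each direction against 0 h, 4 between siRNA times, 2 per role by the F test, and CCNB1, CDK1, PLK1, AURKA, FOXM1, MKI67, TOP2A, BUB3 and CDC25B; of other lists up to 4 genes of smallest p. Under 20 alternatives, among them TPM as deposited and each library left out, all results were recomputed.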

Additional observations from a re-analysis of the deposited data

How the results depend on the processing

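Each result was recomputed under 20 alternatives (19 for the F test): other scalings, a pseudocount of 0.1 or 5, a minimum TPM of 5, no filter, no trend, robust moderation, a replicate block, the compared groups alone and each library left out. Size factors over all genes above 0 were added after seeing the data. Of 62 calls of single genes, 19 held under every alternative and 0 changed sign. Of 163 values not called, 23 were called in some alternative and 73 changed sign in some. TPM as deposited gave 0 called genes of the set at 24 h against 0 h (main value 1), 1 at 48 h (main 6), 0 for 48 h against 24 h (main 15) and 19 by the F test (main 29). With no filter the counts were 0 at 24 h and 2 at 48 h, with a minimum TPM of 5 it was 2 at 24 h, with no trend 0 at 24 h and 8 for 48 h against 24 h, and with the same listed sum 13 at 48 h. Leaving out 1 library gave 0 to 4 at 24 h, 2 to 7 at 48 h, 17 to 22 at 72 h, 2 to 16 for 48 h against 24 h, 9 to 18 for 72 h against 48 h and 26 to 31 by the F test, where the remaining library of a group takes its spread from the rest. The replicate block gave 1, 6, 21, 14 and 19 in these comparisons. Same-numbered libraries showed no strong shared deviation (correlations of -0.0855 to 0.106). With 2 libraries a group this cannot show whether the numbers mark a shared culture or batch. Under the block NDC80 at 48 h (0.0592) and BUB1B at 72 h (0.0678, limma adjusted p) lost their calls against 0 h. Over all genes, leaving out 1 library gave 4 to 296 calls at 24 h (main 129), 1358 to 3147 at 48 h (main 2797) and 622 to 1955 for 48 h against 24 h (main 1668), and no filter, no trend and a minimum TPM of 5 gave 18, 20 and 194 at 24 h. The number called at 48 h was 922 as deposited and 2797 scaled, at 24 h 55 and 129, for 48 h against 24 h 597 and 1668, and for 72 h against 48 h 3211 and 4751. Of these calls 45.5 and 59.7% were higher at 24 h, 25.2 and 49.6% at 72 h, 85.8 and 53.9% for 48 h against 24 h and 18.4 and 51.3% for 72 h against 48 h; with the same listed sum 33.5% at 24 h and 33.4% at 48 h (main 51.1%), and with quantile scaling 49.5% at 24 h. The cause of these differences was not tested. With 2 libraries a group and no depth, small changes of low genes such as CDC25C cannot be resolved.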

Other observations

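Ratios between partner genes within a library do not depend on the scaling between libraries. The pairs below were chosen after their values were seen and carry no test. MAD2L1 and BUB1, both of the spindle checkpoint, stood at a TPM ratio of 1.05 and 1.14 at 0 h, 0.898 and 1.11 at 24 h, 0.853 and 0.962 after 48 h and 0.465 and 0.490 after 72 h. The 72 h libraries lay below the other 6. NDC80 over NUF2, subunits of 1 complex, was 1.73 and 2.01 at 0 h, 1.77 and 1.59 at 24 h, 1.70 and 1.49 after 48 h and 1.18 and 1.30 after 72 h. Survivin over borealin (BIRC5 over CDCA8) was 3.13 and 2.63 at 0 h, 2.77 and 2.87 at 24 h, 2.42 and 2.65 after 48 h and 2.21 and 2.01 after 72 h. ECT2 over ANLN was 0.472 and 0.488 at 0 h, 0.502 and 0.493 at 24 h, 0.439 and 0.420 after 48 h and 0.261 and 0.230 after 72 h. For CDC20 over CCNB1 the ratio was lower in each later group, at 0.685 and 0.721 at 0 h, 0.638 and 0.645 at 24 h, 0.573 and 0.593 after 48 h and 0.506 and 0.541 after 72 h, with no overlap between the 4 groups. In each of the 5 pairs both 72 h libraries lay below all 6 others.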
